A study of Mus musculus with 10 samples.

Results

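The 10 genes described here encode the core of TGF-beta signalling: the ligands Tgfb1, Tgfb2 and Tgfb3, the latency protein Ltbp1, the receptors Tgfbr1, Tgfbr2 and Tgfbr3, and the signal carriers Smad2, Smad3 and Smad7. They are 10 of 21631 protein-coding genes on chromosomes 1 to 19 and X, and were chosen by name. For each gene, ATAC-seq peaks were counted whose summit lay in the gene body or within 10 kb on either side, in mm10 coordinates. ATAC-seq uses a transposase to cut and tag accessible DNA, and a peak is a stretch where such cuts pile up. The loci held 646 summits over 10 libraries when each list was held to its 39912 strongest peaks, the values used below, and 974 summits in the full deposited lists. With flanks of 9 and 11 kb the loci held 629 and 648 summits.

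All libraries came from bone marrow stroma of C57BL/6J mice carrying the Scf-GFP reporter, in which GFP marks cells that make stem cell factor. The rMSC group (n = 3), named revitalized MSCs by the submitters, was cultured stroma that received Klf7, Irf3, Irf7, Ostf1 and Xbp1 by transduction. The control group (n = 3) was cultured stroma that received a control vector. Per the labels' protocols, stroma for culture was Scf-GFP-positive, and its medium held 20% fetal bovine serum and FGF-basic. Scf-GFP-positive stroma (n = 2) and Scf-GFP-negative stroma (n = 2) were sorted from marrow without culture, after cells with CD45, Ter119 or CD31 had been gated out. No ages are stated in the labels. Nothing in the labels says that replicates came from separate mice or cultures, so the p-values speak only of library-to-library spread, part or all of which could be technical.

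TGF-beta ligands are secreted in a latent form, bound to their own propeptide and, through it, to latent TGF-beta binding proteins such as Ltbp1, which tether the complex to the matrix. Released ligand joins the type II receptor Tgfbr2 to the type I receptor Tgfbr1, with Tgfbr3 (betaglycan) as a co-receptor that favours Tgfb2 binding. Tgfbr1 then phosphorylates Smad2 and Smad3, which enter the nucleus, while Smad7 is an inhibitor that acts on the receptor. In bone marrow this pathway is known for its part in holding blood stem cells quiescent and in fibrosis.

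The promoters of 6 of the 10 genes could be read from RefSeq (GRCm38.p6, which has mm10 coordinates), as the 250 bases before each annotated start. Across 32585 such windows, 26.1% held a peak in all 10 libraries, and so did those of Tgfb1, Tgfbr1 (at the first of its 2 starts), Tgfbr2 and Smad3. Both starts of Ltbp1 had a peak in 9 libraries. The Tgfb2 window had a peak in all 6 cultured libraries and in none of the 4 sorted ones, a pattern of 0.298% of windows. The sequences of 4 promoters whose peaks are compared below are printed 5′ to 3′ on the gene's strand, with capitals for matches on either strand to 5 searched motifs. These were the GC box GGGCGG, the Smad-binding letters CAGACA, the AP-1 letters TGANTCA, the cyclic AMP element TGACGTCA and the TATA box TATAAA. No match overlapped another. They lie at chr7:25686752-25687001 (plus strand, Tgfb1), chr1:186705990-186706239 (minus strand, Tgfb2), chr9:116175364-116175613 (minus strand, Tgfbr2) and chr17:75005279-75005528 (plus strand, the first start of Ltbp1).
Tgfb1: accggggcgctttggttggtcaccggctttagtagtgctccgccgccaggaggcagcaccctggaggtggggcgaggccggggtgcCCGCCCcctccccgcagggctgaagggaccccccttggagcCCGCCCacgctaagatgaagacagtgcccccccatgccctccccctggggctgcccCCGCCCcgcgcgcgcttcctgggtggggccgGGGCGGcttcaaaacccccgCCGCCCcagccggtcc
Tgfb2: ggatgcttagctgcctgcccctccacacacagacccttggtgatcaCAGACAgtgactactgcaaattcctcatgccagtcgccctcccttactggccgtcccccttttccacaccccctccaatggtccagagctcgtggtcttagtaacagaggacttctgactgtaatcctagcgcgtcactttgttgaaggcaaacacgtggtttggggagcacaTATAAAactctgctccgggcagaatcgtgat
Tgfbr2: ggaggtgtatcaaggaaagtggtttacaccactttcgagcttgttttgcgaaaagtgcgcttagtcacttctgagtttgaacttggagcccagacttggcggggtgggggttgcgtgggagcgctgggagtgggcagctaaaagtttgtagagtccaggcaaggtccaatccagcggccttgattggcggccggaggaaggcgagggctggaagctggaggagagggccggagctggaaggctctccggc
Ltbp1: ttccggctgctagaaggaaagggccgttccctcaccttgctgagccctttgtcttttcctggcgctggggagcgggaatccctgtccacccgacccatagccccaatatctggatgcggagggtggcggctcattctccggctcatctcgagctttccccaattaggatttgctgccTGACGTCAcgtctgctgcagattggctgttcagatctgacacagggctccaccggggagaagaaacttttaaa
The Tgfb1 window held 5 matches to GGGCGG, a motif that 32.7% of 32817 promoter windows contain, and had a GC content of 75.2% with 21 CpG. In the Tgfb2 window, with 53.6% GC and 8 CpG, CAGACA (17.1% of windows) began at -204 and TATAAA (12.4%) at -31 from the start. The first Ltbp1 window held TGACGTCA (1.55% of windows) at -73, and the Tgfbr2 window held none of the 5. TGANTCA (6.75% of windows) matched in none of these 4. A match of letters is a description and not a binding site.

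The libraries differed in ways that bear on all counts. Deposited lists held 39936 to 78489 peaks, and within the lists of 39912 the weakest peak had a −log10 q of 4.268 to 5.802 in rMSC, control and Scf-GFP-positive libraries, against 2.653 and 2.097 in Scf-GFP-negative replicates 1 and 2. Scf-GFP-negative replicate 2 had 39912 peaks outside chromosome Y and set the list size, so its full list adds none. Replicate 1 had 46833. Absence from the full Scf-GFP-negative lists therefore adds little to absence from those of equal size. A site absent from a list may still be accessible, and sequencing depth is unknown. Fewer cells with an accessible site and weaker opening per cell cannot be told apart in these bulk libraries. Summits at 14 haematopoietic marker loci numbered 22 to 23 in rMSC, 16 to 22 in control, 28 to 29 in Scf-GFP-positive and 57 to 74 in Scf-GFP-negative libraries. At Ptprc, the CD45 gene, there were 0 summits in either Scf-GFP-positive library and 5 in either Scf-GFP-negative library, although cells with CD45 were gated out of both. Ptprc had 2, 2 and 2 summits in rMSC and 2, 1 and 2 in control. Not all of the list moved alike, and Cd79a had 3 and 4 in both sorted groups. Of 9 tested loci 3 were lower and 0 higher in Scf-GFP-positive over Scf-GFP-negative stroma, where 16.5% and 13.4% of all loci were. Summits at 12 mesenchymal stromal marker loci numbered 51 to 52 in rMSC, 64 to 75 in control, 77 to 90 in Scf-GFP-positive and 14 to 15 in Scf-GFP-negative libraries. Lepr, a marker of marrow stroma, had 0 summits in all 6 cultured libraries and 2 and 2 in Scf-GFP-positive stroma, too few for testing. Of 10 tested loci of this list, 1 was higher and 0 lower in control over Scf-GFP-positive stroma. This was Ebf3, with 11, 9 and 12 summits against 3 and 4. In rMSC over Scf-GFP-positive stroma 0 were higher and 2 lower. The shares of all loci were 5.59% and 6.01%, and 7.49% and 6.64%. At 10 endothelial marker loci the counts were 12 to 13 in rMSC and 12 to 13 in control. They were 10 to 11 in Scf-GFP-positive and 10 to 21 in Scf-GFP-negative libraries, with Sox17 at 0 in all libraries.

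**Figure D1:**
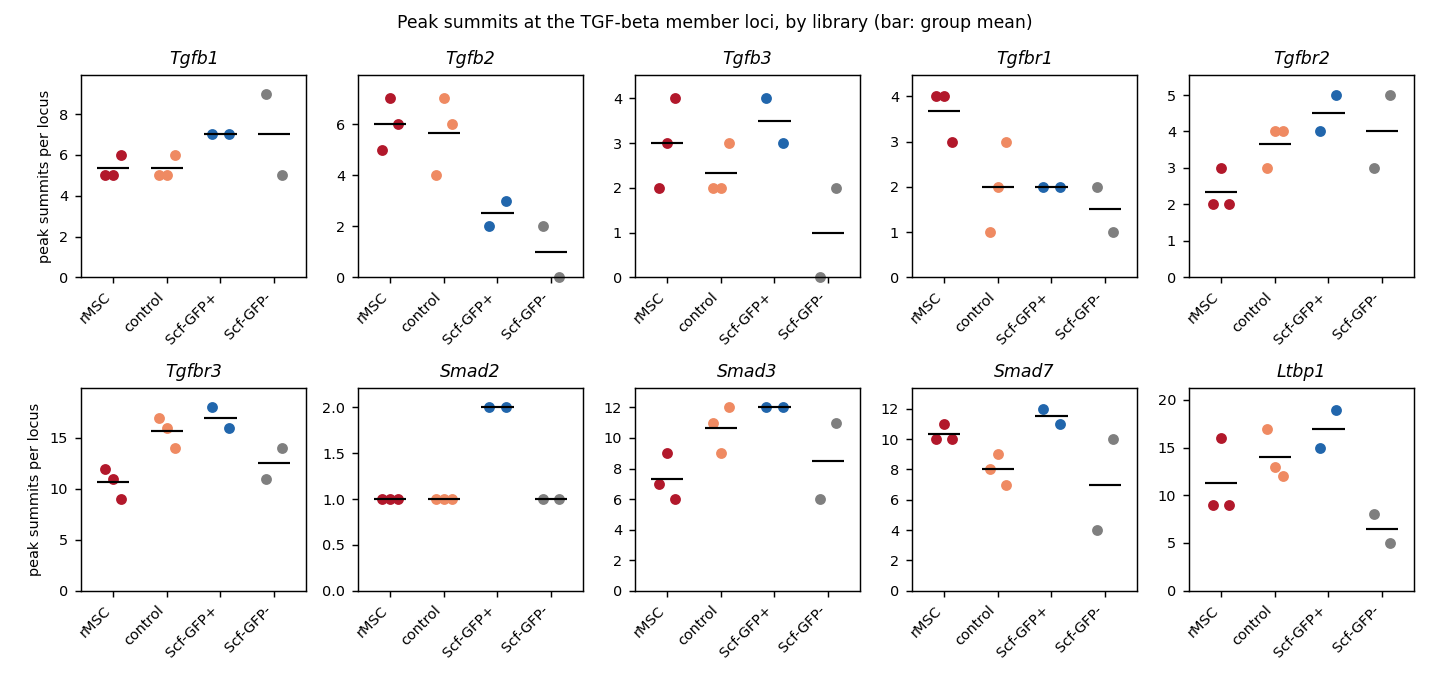
Peak summits per locus (y axis, count in lists of equal size) for the 10 TGF-beta genes in rMSC, control, Scf-GFP-positive (Scf-GFP+) and Scf-GFP-negative (Scf-GFP-) stroma; each point is a library and each bar a group mean. Tgfb2 reached 4 to 7 summits in cultured libraries and 0 to 3 in sorted ones, and Ltbp1 had at least 9 in rMSC, control and Scf-GFP+ libraries against 5 to 8 in Scf-GFP- ones.

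Of the ligands, Tgfb2 had more summits in culture than in sorted stroma. It had 5, 7 and 6 summits in rMSC, 4, 7 and 6 in control cultures, 2 and 3 in Scf-GFP-positive and 2 and 0 in Scf-GFP-negative stroma. Every cultured library lay above every sorted library. Against Scf-GFP-positive stroma, 14.3% of all loci were higher without overlap in control and 16.7% in rMSC. Over the 4 groups the limma F test on log2(summits + 0.5), adjusted by Benjamini-Hochberg over 9124 tested loci, passed the threshold of 0.05 (F = 7.37, adjusted p = 0.0323), as it did for 45.1% of loci. The pairwise changes did not pass in limma. The log2 change was 1.03 ± 0.60 (SE, adjusted p = 0.327) in control over Scf-GFP-positive and 1.12 ± 0.60 (adjusted p = 0.263) in rMSC over Scf-GFP-positive. Leaving out any 1 rMSC, control or Scf-GFP-positive library took the F test above the threshold (adjusted p = 0.0515 to 0.0724), as did no filter on low values, the replicate block and flow cell as a covariate (up to 0.110). With −log10 q of at least 5 both pairwise changes passed in limma (adjusted p = 0.0340 and 0.0272). At that cut the lists were unequal, with 32988 and 31780 peaks in Scf-GFP-positive and 36157 to 46688 in cultured libraries. Of all loci called there, 81.7% and 80.8% were higher, and the median change over all loci was 0.16 and 0.18.

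The Tgfb2 gene lies at chr1:186622787-186709697, and its regions show where the cultured and sorted lists parted. The annotated start used for its promoter, base 186705989, and the 250-base window lie inside this span. Distances along Tgfb2 are from that start. Peaks of all libraries were merged into regions, and a library holds a region where it has a peak over at least 1 base of it. The merged region that spans the start (chr1:186705039-186706515) was held by every rMSC, control and Scf-GFP-positive library and by no Scf-GFP-negative library. The authors' fold enrichment of its peak was 23.5, 13.1 and 20.8 in rMSC, 11.1, 18.5 and 9.3 in control, and 9.9 and 9.4 in Scf-GFP-positive stroma. The Scf-GFP-positive peaks in this region ended at bases 186705814 and 186705723, short of the start and of the 250 bases before it. A region in the gene body, 10.49 kb from that start (chr1:186694951-186696051), was held by all 6 cultured libraries at folds of 8.2 to 11.3. No sorted library held it even in the full deposited lists.

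Near the far end of Tgfb2, 2 regions were held by the rMSC lists alone. The region at 78.28 kb from the start (chr1:186627219-186628206) had folds of 8.9, 17 and 16.3 in the 3 rMSC libraries and no peak in the other 7. In the full deposited lists 1 control library also had a peak there. The region at 92.14 kb, in the flank (chr1:186613554-186614143), had folds of 8.1, 9.3 and 12.6 in rMSC and no peak in any deposited list of the other groups. This flanking region also overlaps Gm35546, a long non-coding RNA gene. Over the genome 3.05% of 120054 regions were held by every rMSC and no control library, and at the 10 loci it was 6 of 182 regions (3.3%). The reverse, every control and no rMSC library, was met by 6 regions (3.3%) and by 3.4% of all.

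Tgfb1, the ligand most studied in marrow, had a dense and even locus. It had 5, 5 and 6 summits in rMSC, 5, 5 and 6 in control, 7 and 7 in Scf-GFP-positive and 9 and 5 in Scf-GFP-negative stroma. The 2 cultured groups were alike, both lay below Scf-GFP-positive stroma, and the Scf-GFP-negative pair spanned all other libraries. No comparison of summits passed, with log2 changes of -0.37 ± 0.23 in control over Scf-GFP-positive (adjusted p = 0.349) and the same in rMSC over Scf-GFP-positive (adjusted p = 0.328). The locus (gene at chr7:25687002-25705077) also holds B9d2, Tmem91 and Ccdc97 within its flanks, and its summits cannot be assigned to 1 of these genes.

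The length covered by peaks at Tgfb1 did differ. Peaks covered 3673, 4583 and 4226 bases of the locus in rMSC, 2871, 3958 and 4145 in control, 8930 and 9254 in Scf-GFP-positive and 6023 and 4879 in Scf-GFP-negative stroma. Both Scf-GFP-positive libraries lay above all 8 others. On log2(covered bases + 100) in limma, Tgfb1 fell by 1.31 ± 0.19 in control against Scf-GFP-positive stroma (adjusted p = 0.00111) and fell by 1.11 ± 0.19 in rMSC against Scf-GFP-positive stroma (adjusted p = 0.00211). Over all loci tested, 13.3% and 12.3% were lower on this measure in these comparisons. It rose by 0.74 ± 0.21 in Scf-GFP-positive over Scf-GFP-negative stroma (adjusted p = 0.0186), where 20.3% of loci were higher. Mean peak width was 611.2 and 640.4 bases in Scf-GFP-positive, 485.4 and 586.3 in Scf-GFP-negative, 505.2 to 613.3 in control and 589.1 to 627.6 in rMSC lists. On covered bases the median change over all loci was -0.24 in control and -0.13 in rMSC over Scf-GFP-positive stroma. It was -0.01 in Scf-GFP-positive over Scf-GFP-negative stroma. The part of peak width in the covered lengths was not tested. A region past the end of the gene (chr7:25706652-25708581) had folds of 13.5 and 11.9 in Scf-GFP-positive stroma and a peak in 1 of the 6 cultured libraries.

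Tgfb3 (chr12:86056743-86079041) had few summits, with 2, 3 and 4 in rMSC, 2, 2 and 3 in control, 4 and 3 in Scf-GFP-positive and 0 and 2 in Scf-GFP-negative stroma. Scf-GFP-positive stroma lay above Scf-GFP-negative stroma with no overlap, by a log2 change of 1.83 ± 0.67 that did not pass (adjusted p = 0.0758). Covered length was 2752 and 2759 bases in Scf-GFP-positive against 0 and 474 in Scf-GFP-negative stroma, and this change passed at 3.58 ± 0.58 (adjusted p = 0.000455). The flank of the locus reaches into Ift43, a gene for a protein of cilium transport, and its summits there cannot be assigned to 1 gene. The region at chr12:86082313-86083216 was held by all 8 libraries outside Scf-GFP-negative stroma and by neither of those, as 2.07% of all regions were. A second Ift43 region, at chr12:86088111-86088815, was held by both Scf-GFP-positive libraries alone (folds 7.8 and 8.2).

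Ltbp1, which anchors latent TGF-beta to the matrix, was the member that rose in Scf-GFP-positive over Scf-GFP-negative stroma. It had 15 and 19 summits in Scf-GFP-positive against 8 and 5 in Scf-GFP-negative libraries, with no overlap. The log2 change was 1.35 ± 0.34 (limma, adjusted p = 0.0215). In this comparison 13.4% of the 9124 loci rose and 16.5% fell, so 1 called member of 9 tested is near the share over all loci. Within the flow cell that held replicate 1 of every group the change was 0.87 (15 against 8 summits), and within the other it was 1.83 (19 against 5). The call was lost with only the 2 groups in the fit (adjusted p = 0.140), with tied peaks at the list end dropped (0.98, adjusted p = 0.0553), and without Scf-GFP-positive replicate 1 (adjusted p = 0.0566) or 2 (0.110) or Scf-GFP-negative replicate 2 (0.115). The part of the lower peak strength and the haematopoietic marker summits of Scf-GFP-negative lists in this difference was not tested.

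In culture, Ltbp1 had 9, 16 and 9 summits in rMSC and 17, 13 and 12 in control libraries. These groups overlapped, and the log2 changes of -0.33 ± 0.27 in rMSC over control (adjusted p = 0.619) and -0.28 ± 0.31 in control over Scf-GFP-positive (adjusted p = 0.621) did not pass, nor did -0.61 ± 0.31 in rMSC over Scf-GFP-positive (adjusted p = 0.240). Of 43 regions at this gene (chr17:75005480-75392512), 9 were held by both Scf-GFP-positive libraries and neither Scf-GFP-negative one. Both Scf-GFP-positive and no rMSC library held 7. Over the genome 9.61% and 7.06% of regions met these patterns. Every rMSC and no control library held 0, and every control and no rMSC library held 1 (3.05% and 3.4% of all regions). There were 17 regions held by 1 library alone.

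Distances along Ltbp1 are from the first RefSeq start. Regions at 22.04, 42.86 and 72.25 kb were held by both Scf-GFP-positive libraries (folds 5.7 to 10.1) and by no other deposited list. The region at 12.76 kb (chr17:75017727-75018847) was held by 3 control libraries (folds 8.1, 9.3 and 6.9) and both Scf-GFP-positive libraries (17.8 and 9.4), and by no rMSC list, deposited lists included. The region at 250.52 kb (chr17:75255662-75256430) had folds of 24.3, 28.6 and 20.1 in rMSC and 8.9, 10.8 and 12.3 in control, and no peak in any deposited list of sorted stroma. At 245.79 kb (chr17:75250936-75251694) the folds were 16.2, 17.8 and 18.6 in rMSC, against 6.7 in 1 control library. The other 2 control libraries had a peak there in their full deposited lists.

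**Figure D2:**
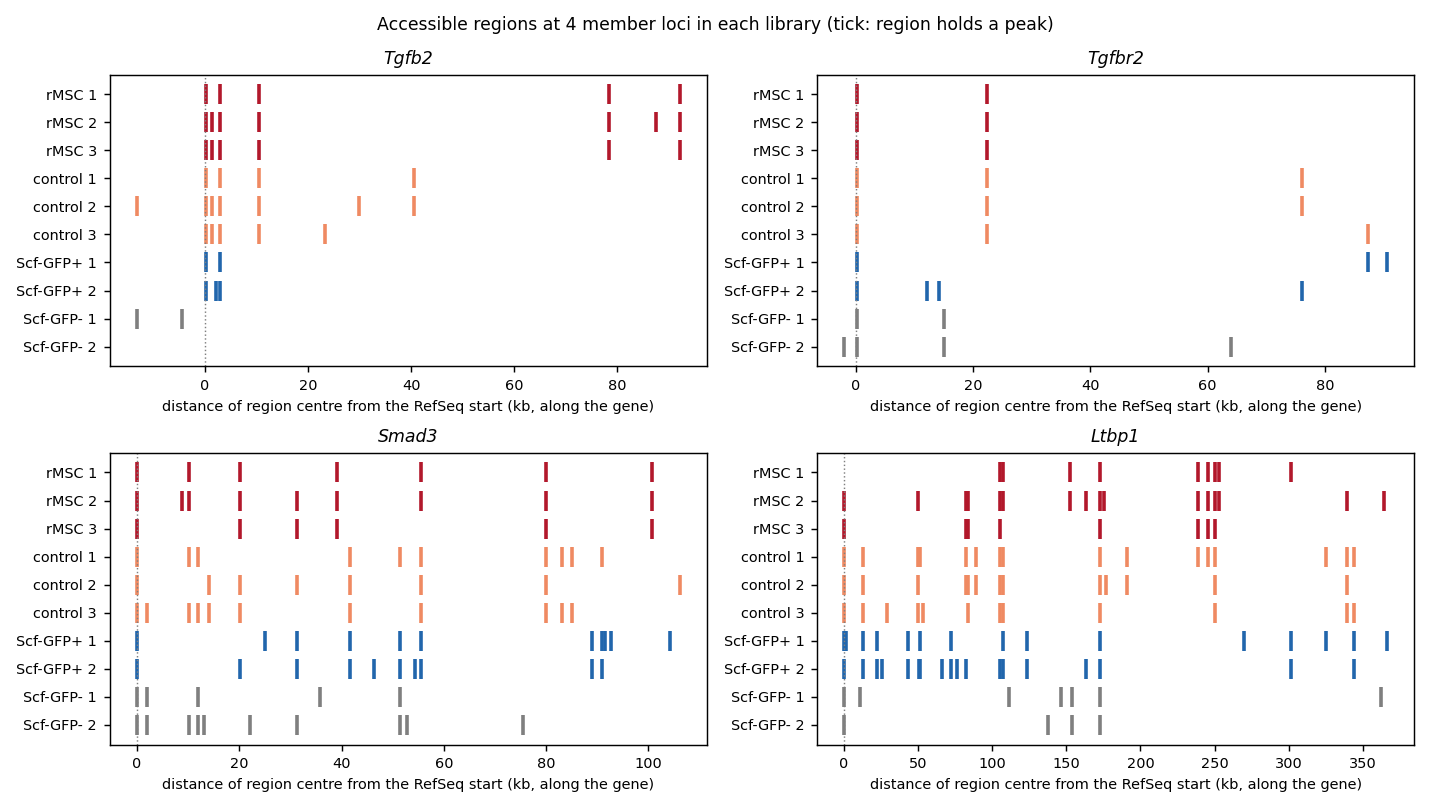
Accessible regions at the Tgfb2, Tgfbr2, Smad3 and Ltbp1 loci; the x axis is the distance of a region's centre from the first RefSeq start in kb along the gene, each row is a library, and a tick marks a region that holds a peak in the list of equal size. Tgfb2 has rMSC ticks at 78.28 and 92.14 kb, Tgfbr2 has a tick at 22.32 kb in every cultured row, Smad3 has one at 41.59 kb in control and Scf-GFP+ rows, and Ltbp1 has one at 250.52 kb in every cultured row.

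Of the receptors, Tgfbr3 had the most summits, and its locus fell in rMSC against Scf-GFP-positive stroma. It had 12, 11 and 9 summits in rMSC, 17, 16 and 14 in control, 18 and 16 in Scf-GFP-positive and 11 and 14 in Scf-GFP-negative stroma. The rMSC libraries lay below every control and every Scf-GFP-positive library. Over all loci, 6.86% were lower without overlap in rMSC over control and 17.8% in rMSC over Scf-GFP-positive. The log2 change in rMSC over Scf-GFP-positive was -0.66 ± 0.16 (limma, adjusted p = 0.0377), 1 of 9 members lower and 0 higher, where 6.64% of loci were lower and 7.49% higher. In rMSC over control it was -0.54 ± 0.14 and did not pass (adjusted p = 0.101), nor did any other member, where 2.44% of loci were called. At an unadjusted p under 0.05, 3 of 9 members stood in that comparison, Tgfbr1, Tgfbr2 and Tgfbr3, where 17.8% of all loci did. Within the flow cell of replicate 1, rMSC had 12 against 18 summits in Scf-GFP-positive stroma (log2 change -0.57), and within the other 11 and 9 against 16 (-0.66).

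The Tgfbr3 change depended on the length of list used. It was -0.21 (adjusted p = 0.574) with all deposited peaks and -0.27 (adjusted p = 0.746) with peaks of −log10 q of at least 5. It also missed the threshold with a replicate block (-0.56, adjusted p = 0.0824), with flow cell as a covariate (-0.64, adjusted p = 0.0561), with only the 2 groups, and without rMSC replicate 2 or 3, control replicate 1 or 2, or either Scf-GFP-positive replicate (adjusted p up to 0.171).

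Tgfbr3 (chr5:107106567-107289629) had 47 regions, the most of the 10 loci. Of these, 9 were held by both Scf-GFP-positive libraries and neither Scf-GFP-negative one, as 9.61% of all regions were. The region at chr5:107219060-107220189 had folds of 7.4, 7.7 and 7.7 in control and 8.5 and 9.4 in Scf-GFP-positive stroma, and no rMSC or Scf-GFP-negative library held it in any deposited list. At chr5:107116618-107117510 the control folds were 15.5, 12.3 and 13.9 and the Scf-GFP-positive folds 10.7 and 9.4, while 1 rMSC library had a peak in its full list alone. Culture also had a site of its own at chr5:107195464-107196663, with folds of 13.4 to 13.9 in rMSC and 7.7 to 8.9 in control. In the equal-size lists no sorted library held it, and in the full lists 1 Scf-GFP-positive library did. The region at chr5:107288186-107290086, which spans an edge of the gene, was held by all 10 libraries, with folds of 18.5 to 23 in rMSC, 23.7 to 26.2 in control, 21.3 and 15.1 in Scf-GFP-positive and 5.2 and 9.3 in Scf-GFP-negative stroma.

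Tgfbr2, the type II receptor (chr9:116087695-116175363), had stronger promoter peaks in the cultured lists than in the sorted ones. It had 2, 3 and 2 summits in rMSC, 3, 4 and 4 in control, 4 and 5 in Scf-GFP-positive and 3 and 5 in Scf-GFP-negative stroma. The rMSC libraries lay below Scf-GFP-positive stroma without overlap, but the log2 change of -0.83 ± 0.25 did not pass (adjusted p = 0.0676). The peak over the promoter printed above had folds of 17.8, 22.4 and 34.9 in rMSC, 26.6, 24.7 and 21.6 in control, 8.5 and 10.7 in Scf-GFP-positive and 5.8 and 10.1 in Scf-GFP-negative stroma. By −log10 p it ranked among the top 2.75 to 17.95% of peaks in each cultured list and among the top 26.96 to 45.22% in each sorted list. How many other promoters show this order was not counted. The merged region over this start also overlaps Gm40582, a long non-coding RNA gene. A region 22.32 kb inside the gene (chr9:116152549-116153545) had folds of 34, 23.9 and 36.4 in rMSC and 16.3, 19.3 and 16.2 in control. The equal-size lists of sorted stroma lacked it, and the full list of 1 Scf-GFP-positive library had it. No test was made on peak strengths, which the authors scaled within each library.

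Tgfbr1, the type I receptor kinase (chr4:47353222-47414926), had 4, 4 and 3 summits in rMSC, 1, 2 and 3 in control, 2 and 2 in Scf-GFP-positive and 2 and 1 in Scf-GFP-negative stroma. The rMSC counts were the highest of the groups, touching control at 3. The log2 change of 0.81 ± 0.32 in rMSC over control did not pass (adjusted p = 0.251). Its start region was held by all 10 libraries, with folds of 23 to 25.1 in rMSC, 23.1 to 29.6 in control, 38.4 and 37.7 in Scf-GFP-positive and 16.9 and 28 in Scf-GFP-negative stroma. A region 54.14 kb from the first start (chr4:47407138-47407597) had folds of 17.8, 17 and 16.3 in rMSC and 8.5 in 1 control library. In the full deposited lists all 6 cultured libraries had it and no sorted library did.

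Among the Smads, Smad3 (chr9:63646766-63757994) had 7, 9 and 6 summits in rMSC, 11, 9 and 12 in control, 12 and 12 in Scf-GFP-positive and 6 and 11 in Scf-GFP-negative stroma. The rMSC libraries lay below Scf-GFP-positive stroma without overlap and met control at 9. The log2 change was -0.69 ± 0.26 in rMSC over Scf-GFP-positive (adjusted p = 0.128) and -0.52 ± 0.24 in rMSC over control (adjusted p = 0.300), and neither passed. In covered length Smad3 fell by 0.92 ± 0.26 in rMSC against Scf-GFP-positive stroma (adjusted p = 0.0260), with 3531, 4663 and 2915 bases against 7111 and 6816. On that measure 3 of 9 members were lower in rMSC (Tgfb1, Tgfbr3 and Smad3) and 0 higher, where 12.3% of loci were lower and 8.37% higher. In control over Scf-GFP-positive stroma 1 was lower (Tgfb1) and 0 higher, where 13.3% were lower and 5.17% higher. In rMSC over control 0 members passed on it, where 6.66% of loci were higher and 3.06% lower. A region 41.59 kb inside the gene (chr9:63716042-63716764) had folds of 10.3, 14.7 and 14.7 in control and 12.1 and 13.8 in Scf-GFP-positive stroma, and no rMSC or Scf-GFP-negative list held it. A neighbouring region at 39.02 kb (chr9:63718773-63719167) was held by the 3 rMSC libraries alone, at folds of 7.3, 5.4 and 5.9, in the deposited lists too.

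Smad7, the inhibitor (chr18:75367365-75395935), had the densest locus of the 10, at 1.89 summits per 10 kb and library, against 1.58 for Tgfb1, 0.13 for Smad2 and 0.29 to 0.72 for the others. It had 10, 11 and 10 summits in rMSC, 8, 9 and 7 in control, 12 and 11 in Scf-GFP-positive and 4 and 10 in Scf-GFP-negative stroma. The rMSC libraries lay above control without overlap, but the log2 change of 0.36 ± 0.28 did not pass (adjusted p = 0.588). In that comparison 1 of 9 members was higher and 1 lower without overlap, near the shares of 9.28% and 6.86% over all loci. In covered length Smad7 rose by 1.48 ± 0.35 in Scf-GFP-positive over Scf-GFP-negative stroma (adjusted p = 0.00588), with 7876 and 9363 bases against 1804 and 4983. A flank region (chr18:75362996-75364037) had folds of 8.1, 7.7 and 13.1 in control and 12.1 and 11.3 in Scf-GFP-positive stroma and was in no rMSC list. It also lies in the non-coding gene Gm20544. A region inside the gene (chr18:75375411-75376007) was held by all 6 cultured libraries (folds 9.3 to 14.7) and by no sorted list.

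Smad2 (chr18:76241090-76311748) had 1 summit in every rMSC and control library, 2 in each Scf-GFP-positive and 1 in each Scf-GFP-negative library. Its mean of 1.2 summits per library was below the minimum of 2 for testing. The shared peak, at the edge of the gene (chr18:76240648-76242665), had folds of 27 to 29 in rMSC, 24.7 to 29.6 in control, 29.8 and 26.4 in Scf-GFP-positive and 15.2 and 29.5 in Scf-GFP-negative stroma. The additional Scf-GFP-positive region (chr18:76254706-76255018) had a fold of 5.7 in both libraries.

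**Figure D3:**
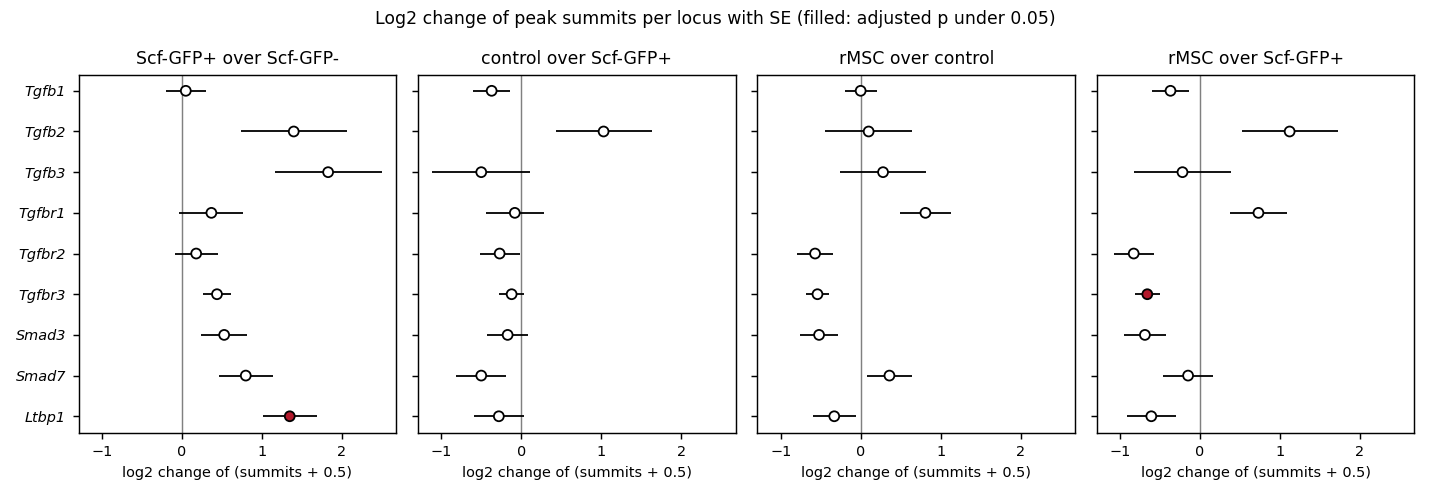
Log2 change of (summits + 0.5) with its standard error (x axis) for the 9 tested TGF-beta genes (rows) in 4 comparisons (panels, first group over second); filled points have an adjusted p under 0.05. Only Ltbp1 in Scf-GFP+ over Scf-GFP- (1.35) and Tgfbr3 in rMSC over Scf-GFP+ (-0.66) are filled.

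Set side by side, the 9 tested members leaned toward Scf-GFP-positive stroma over Scf-GFP-negative stroma. All 9 log2 changes were above 0 (0.05 to 1.83), with a median of 0.53 against -0.24 over all loci, although Tgfb1, Tgfbr2 and Smad3 were below 0 and Tgfbr1 at 0 under 1 or more other settings (gene body alone, 20 kb flanks, ties dropped, or a Scf-GFP-negative library left out). The groups did not overlap for 5 members (Tgfb3, Ltbp1, Tgfbr3, Smad3 and Smad7), all higher, where 18.6% of loci were higher without overlap. In covered length 6 of 9 were higher (Tgfb1, Tgfb2, Tgfb3, Ltbp1, Tgfbr3 and Smad7), against 20.3% of loci. Ltbp1 was the member whose summit count passed. The F test over the 4 groups passed for Tgfb2, Tgfbr3 (F = 7.36, adjusted p = 0.0324) and Ltbp1 (F = 6.19, adjusted p = 0.0447), 3 of 9 members beside 45.1% of loci. The Tgfbr3 F test was lost without rMSC replicate 2 or 3, control replicate 1 or 2, or either Scf-GFP-positive replicate (adjusted p = 0.0585 to 0.0803). The Ltbp1 F test was lost without any 1 library other than rMSC replicate 2 (adjusted p = 0.0621 to 0.197), and with no filter, the replicate block, flow cell as a covariate or tied peaks dropped. In control over Scf-GFP-positive stroma 0 of 9 passed in limma, where 11.6% of loci were called (5.59% higher and 6.01% lower), and 0 had an unadjusted p under 0.05, where 26.6% of loci did. There 1 member was higher and 2 lower without overlap, beside 14.3% and 17.4% of loci. In rMSC over control 0 of 9 passed, where 1.38% of loci were higher and 1.06% lower, and the median was 0 for the members and 0 for all loci. In rMSC over Scf-GFP-positive stroma it was -0.37 against 0, with Tgfb2 and Tgfbr1 higher and Tgfb1, Tgfbr2, Tgfbr3 and Smad3 lower without overlap between groups (16.7% and 17.8% of loci). The 4 comparisons share control or Scf-GFP-positive libraries, and the Scf-GFP-positive pair is the first group in 1 of them and the second in 2.

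Shares of regions were set beside those over the genome. Of 182 regions at the 10 loci, 30 (16.5%) were held by both Scf-GFP-positive and neither Scf-GFP-negative library, against 9.61% of 120054 regions, and 7 (3.85%) the other way, against 4.48%. All 30 but 1 were also absent from the full Scf-GFP-negative lists, which adds little. The full list of replicate 2 was its list of 39912 peaks, and that of replicate 1 held 46833. Of the 30, 26 lay in a gene body. Held by both Scf-GFP-positive and no rMSC library were 22 (12.1%, against 7.06%), and by every rMSC and no Scf-GFP-positive library 14 (7.69%, against 7.92%). Held by every control and no Scf-GFP-positive library were 9 (4.95%, against 7.15%), and by both Scf-GFP-positive and no control library 13 (7.14%, against 6.17%). Regions of 1 locus are not independent of one another, and no test was made on these shares. With 1 library left out, the 30 became up to 50, the 7 up to 24, the 22 up to 41 and the 13 up to 29. By the rule used, leaving a library out can only keep or raise such a count. The shares over all regions were not counted that way, so these values cannot show whether a difference from them holds. Held by all 6 cultured and no sorted library were 6 regions (3.3%, against 2.88%), 1 each at Tgfb2, Tgfbr2, Tgfbr3, Smad3, Smad7 and Ltbp1, all in gene bodies, and 3 of them were absent from every full sorted list. Held by all 10 libraries were 10 regions (5.49%, against 7.75%), and by 1 library alone 70 (38.5%, against 44.1%).

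**Figure D4:**
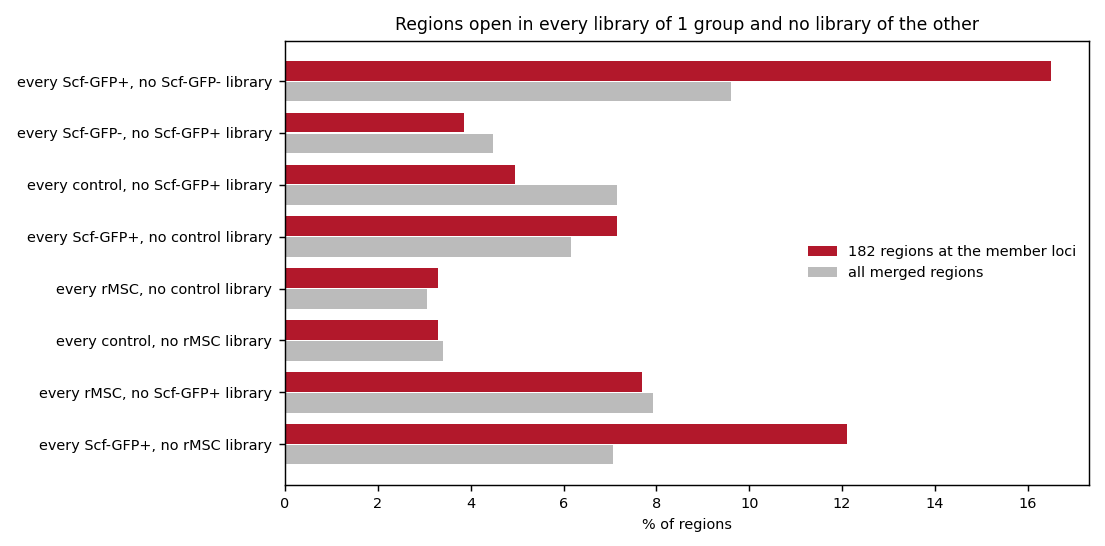
Share of regions (x axis, %) held by every library of 1 group and no library of another, for the 182 regions at the TGF-beta loci (red) and all 120054 merged regions (grey). The red bar is longest for Scf-GFP+ without Scf-GFP- (16.5%, against 9.61% in grey) and next for Scf-GFP+ without rMSC (12.1%, against 7.06%).

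**Figure D5:**
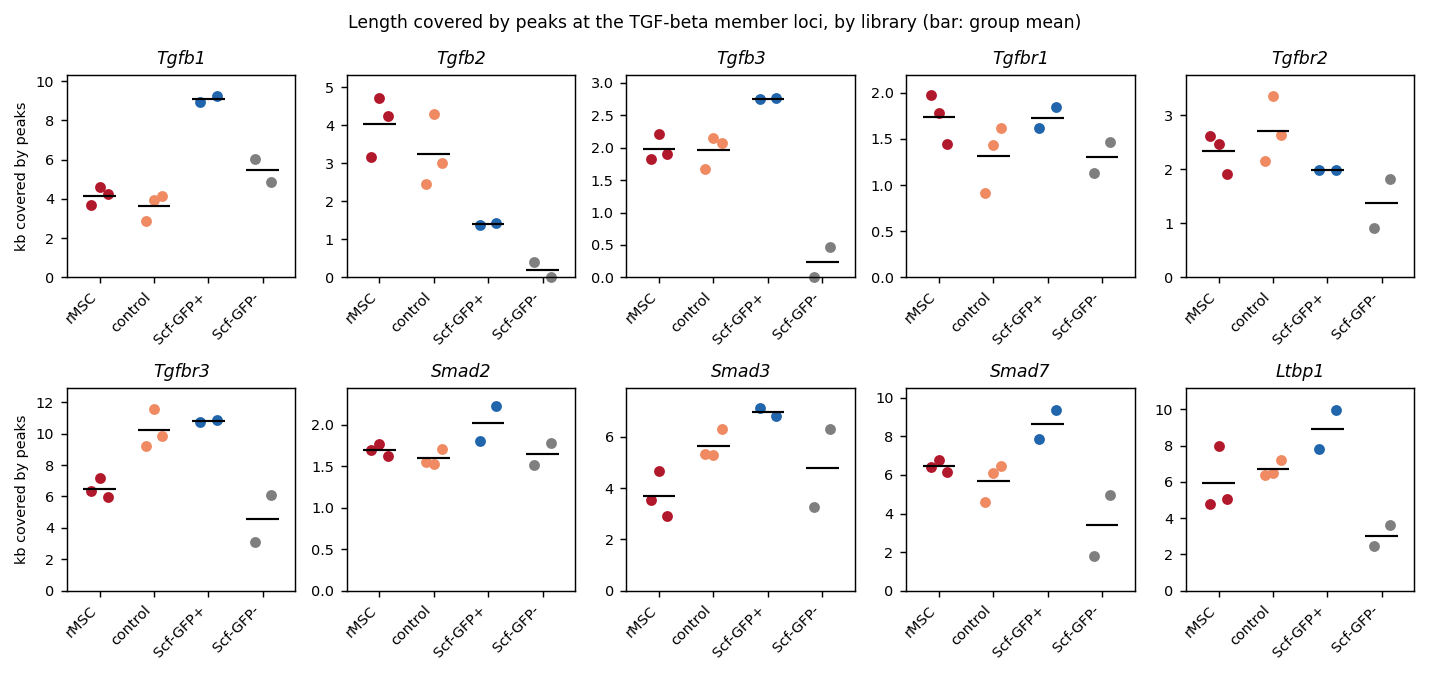
Length covered by peaks per locus (y axis, kb, lists of equal size) for the 10 TGF-beta genes; each point is a library and each bar a group mean. Tgfb1 averages 9.09 kb in Scf-GFP+ libraries, against 4.16 kb in rMSC, 3.66 kb in control and 5.45 kb in Scf-GFP- libraries.

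Genes that release and activate latent TGF-beta differed between the sorted populations. Of 25 listed genes 19 were tested, and 10 rose and 0 fell in Scf-GFP-positive over Scf-GFP-negative stroma, where 13.4% of all loci rose and 16.5% fell, with a median log2 change of 1.58 over the 19 against -0.24 over all loci. The number that rose was 5 with only the 2 groups in the fit and 16 in covered bases. Testing required a mean of at least 2 summits over all libraries, most of which were not Scf-GFP-negative. Loci with peaks in Scf-GFP-negative stroma alone met it less readily, and the shares over all loci carry the same filter. Of the genes named next, Itgb5, Itgb8, Itgb6, Mmp2 and Bgn met it through the other groups. Itgb5, a subunit of an integrin that frees ligand from its latent complex, had 9 and 9 summits in Scf-GFP-positive and 0 and 0 in Scf-GFP-negative libraries (adjusted p = 0.000124). Itgb8, another such subunit, had 5 and 5 against 0 and 0 (adjusted p = 3.742e-05), and Itgb6, also one, had 2 and 3 against 0 and 0 (adjusted p = 0.00143). Fbn1, the fibrillin to which latent complexes bind, had 12 and 9 against 1 and 0 (log2 change 3.65 ± 0.44, adjusted p = 0.00121). The matrix protease gene Mmp2 had 6 and 4 against 0 and 0 (adjusted p = 7.629e-05), and Bgn, a proteoglycan that binds TGF-beta, had 3 and 6 against 0 and 0 (adjusted p = 0.00115).

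In the comparisons with cultured stroma fewer of these genes were called, as of all loci, and no difference between comparisons was tested. Over all loci, 5.59% were higher and 6.01% lower in control over Scf-GFP-positive stroma. The shares were 7.49% and 6.64% in rMSC over Scf-GFP-positive stroma, and 1.38% and 1.06% in rMSC over control. Thbs2, a thrombospondin, rose in control over Scf-GFP-positive stroma (4, 4 and 4 summits against 1 and 1, log2 change 1.58 ± 0.15, adjusted p = 0.00151), the 1 gene of 19 to do so, and in rMSC over Scf-GFP-positive (3, 4 and 3 summits in rMSC, 1.34 ± 0.15, adjusted p = 0.00228). Both Thbs2 calls were lost in covered bases, and with the gene body alone it was below the minimum for testing. Bmp1, a protease that also cleaves latent TGF-beta binding protein, fell in rMSC against control, with 3, 2 and 3 summits against 7, 7 and 6 (-1.19 ± 0.16, adjusted p = 0.0125). It fell in rMSC against Scf-GFP-positive stroma as well (7 and 6 summits there, -1.16 ± 0.18, adjusted p = 0.00791). With all deposited peaks or the gene body alone both Bmp1 calls were lost. The call against control was also lost without control replicate 1 and with the replicate block, and the other with −log10 q of at least 5, tied peaks dropped or only the 2 groups. Itgb8 fell in rMSC against Scf-GFP-positive stroma, with 3, 2 and 3 summits against 5 and 5 (-0.81 ± 0.18, adjusted p = 0.0259). That call was lost in 8 of 23 other settings, among them all deposited peaks, covered bases and the fits without either Scf-GFP-positive replicate.

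Receptor partners and Smad regulators moved in both directions between the sorted populations. Of 29 listed and 23 tested genes, 7 rose and 5 fell beside 13.4% and 16.5% of all loci, with a median of 0.51. With only the 2 groups in the fit 1 rose and 1 fell, and without Scf-GFP-positive replicate 1 4 rose. Smad6, an inhibitory Smad, had 9 and 10 summits in Scf-GFP-positive against 2 and 1 in Scf-GFP-negative stroma (2.37 ± 0.58, adjusted p = 0.0197), and Pmepa1, which limits Smad activation, had 10 and 9 against 1 and 2 (2.37 ± 0.29, adjusted p = 0.00126). Ski, a Smad corepressor, had 14 and 20 against 3 and 6 (1.85 ± 0.30, adjusted p = 0.00402), and Dab2, an adaptor of the receptors, 3 and 5 against 0 and 0 (adjusted p = 0.000559). Dab2 reached the minimum mean for testing through the other groups. Usp15, a deubiquitinase, was lower, with 5 and 1 against 9 and 14 (-2.03 ± 0.52, adjusted p = 0.0230), as was Tgif1, another corepressor, with 3 and 3 against 10 and 6 (-1.24 ± 0.24, adjusted p = 0.00893), although its change in covered bases was 0.42. Tgfbrap1, a receptor-associated protein gene, was lower with 2 and 2 against 6 and 3 (-0.93 ± 0.29, adjusted p = 0.0447), a call kept in 5 of 23 other settings and at 0.13 in covered bases. The Smad6 call was lost without either Scf-GFP-positive replicate or Scf-GFP-negative replicate 2, and the Usp15 call without Scf-GFP-negative replicate 2 and with the longer or stricter lists. In rMSC over control 0 of 23 passed, where 2.44% of all loci were called. Against Scf-GFP-positive stroma 7.49% of all loci were higher and 6.64% lower in rMSC, and 5.59% and 6.01% in control. In rMSC over Scf-GFP-positive stroma Tab1 and Acvr1b rose, Ski and Ppm1a fell, and in control over Scf-GFP-positive stroma Ppm1a fell (1, 1 and 1 summits against 2 and 2). These calls did not hold in all settings. Without Scf-GFP-positive replicate 2 neither Tab1 nor Acvr1b passed, Tab1 was also lost without Scf-GFP-positive replicate 1, and Acvr1b was lost in 11 of 23 settings. Ski was lost in 12 of 23, and with all deposited peaks Ski and both Ppm1a calls were lost.

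Target genes of the pathway differed between the sorted populations as well. Of 25 listed and 19 tested genes, 9 rose and 0 fell in Scf-GFP-positive over Scf-GFP-negative stroma, beside 13.4% and 16.5% of all loci, with a median of 1.22. With the gene body alone 1 rose, and with tied peaks dropped or without Scf-GFP-negative replicate 1 2 fell. Ccn2, a matricellular protein gene, had 2 and 3 summits in Scf-GFP-positive against 0 and 0 in Scf-GFP-negative libraries (adjusted p = 0.00634), Tgfbi had 6 and 4 against 1 and 0 (2.64 ± 0.49, adjusted p = 0.00729), and Timp1 had 4 and 3 against 0 and 0 (adjusted p = 0.000509). Ccn2 and Timp1 reached the minimum mean for testing through the other groups. Of the 19, 0 passed in limma in rMSC over control, where 2.44% of all loci did, and 2 were higher in covered bases. Zeb2, a repressor induced by TGF-beta, fell in both cultured groups against Scf-GFP-positive stroma, with 4, 5 and 5 summits in rMSC (-1.59 ± 0.15, adjusted p = 0.00141), 7, 8 and 8 in control (-0.92 ± 0.15, adjusted p = 0.0134) and 16 and 14 in Scf-GFP-positive stroma. Scf-GFP-negative stroma had 18 and 23 there. Against Scf-GFP-positive stroma 6.64% of all loci were lower in rMSC and 6.01% in control. Between rMSC and control the Zeb2 groups did not overlap, where 6.86% of loci were lower without overlap. The change of -0.66 ± 0.14 in rMSC over control missed the threshold in limma (adjusted p = 0.0542). The control call against Scf-GFP-positive stroma was lost without Scf-GFP-positive replicate 1, with all deposited peaks, with −log10 q of at least 5 and in covered bases. Col1a1, which is also on the stromal marker list, rose in Scf-GFP-positive over Scf-GFP-negative stroma (2.74 ± 0.32, adjusted p = 0.00101). As with Ltbp1, the stromal and haematopoietic marker loci moved with these sorted comparisons, and their part in the counts was not tested.

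The loci whose summit counts most resembled a member's across the 10 libraries were found on other chromosomes by Pearson's r, which shares the libraries and their list size and is given as a description. Tgfb2 was closest to Lama2 (r = 0.978), with 7, 7 and 6 summits in rMSC, 7, 8 and 8 in control, 2 and 3 in Scf-GFP-positive and 3 and 0 in Scf-GFP-negative stroma, and then to Upp2 (r = 0.975). Tgfb3 was closest to Pdgfrb (r = 0.970) and Ndst1 (r = 0.969), and Tgfbr3 to Cfap45 (r = 0.908) and Ppfibp2 (r = 0.900). Ppfibp2 had 1, 1 and 1 summits in rMSC, 8, 7 and 6 in control, 11 and 12 in Scf-GFP-positive and 3 and 4 in Scf-GFP-negative stroma. Ltbp1 was closest to Gdpd5 (r = 0.930) and Proca1 (r = 0.912), Smad3 to Elf4 (r = 0.955) and Susd1 (r = 0.902), Smad7 to Trim46 (r = 0.946) and Cmbl (r = 0.933), and Tgfb1 to P3h3 (r = 0.923) and Samd10 (r = 0.882). Tgfbr1 was closest to Tubb2a (r = 0.890) and Upk3bl (r = 0.881), and Tgfbr2 to Slc35g3 (r = 0.932) and Art3 (r = 0.924).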

How the data were processed

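Each of the 10 ATAC-seq libraries has its own peak list, made by the authors without pooling. The submitters' processing notes name BWA, MACS2 and mm10; which versions and settings were used is not given in the sources used here. For every peak the authors deposited a fold enrichment (a ratio) and −log10 p and −log10 q values. The deposited score is the −log10 q times 10, cut to a whole number. Read counts were not used here, so depth is unknown. The authors' values ranked, filtered or described peaks inside their own list.

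Chromosome Y peaks were left out and each list was held to its 39912 peaks with the highest −log10 p. Ties at the end, 1.8 to 20.4% of a list, were settled by a seeded random draw. Gene positions came from RefSeq (GRCm38.p6), and its table gives no exons, so places are gene body or flank. Summits were counted per locus of 21631 protein-coding genes. Loci averaging 2 or more summits over the libraries (9124, with 9 members) were fitted as log2(summits + 0.5) with limma 3.58.1 with trend (R 4.3.3), all 4 groups in 1 fit with 6 residual and 1.566 prior degrees of freedom. That minimum is a mean over all libraries, most of which were not Scf-GFP-negative. Loci with peaks in Scf-GFP-negative stroma alone reached it less readily. P-values are two-sided and Benjamini-Hochberg adjusted over the 9124 loci, with a threshold of 0.05. This scale shrinks the change of a locus with few summits, and no fold is given where a group had 0 in all libraries. The same fit was run on log2(covered bases + 100). The fit was also run on simulated counts, whose outcome is not given here. Regions, shares and promoter peaks were counted with Python 3.11.15 and were not tested.

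The members, the 3 pathway lists (25, 29 and 25 genes), the marker lists and the tests were chosen with earlier results of these data known, so they are not independent support. All members are named whatever their p. Of each pathway list and direction the 6 passing loci with the largest change could be named, and for each member the 2 loci most like it. A locus that this rule names is not reported here. Alternatives were other list lengths, filters, pseudocounts, flanks, a replicate block, a flow cell term, 2-group fits, covered bases, equal medians, each library left out and, chosen after seeing the data, 2 other treatments of tied peaks. By the names of the deposited lists, the libraries ran on 2 flow cells, with all replicates 1 on the same one.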

Additional observations from a re-analysis of the deposited data

How the results depend on the processing

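Directions of the member changes held wherever a change passed, and changes of sign between values that both missed the threshold were not counted as reversals. Losses of called member changes and F tests are given beside them in the report. Member changes that were not called gained a call 26 times over the other settings and 10 times with a library left out. The number of loci called in Scf-GFP-positive over Scf-GFP-negative stroma was 2722, and 1273 with the gene body alone and 936 with only the 2 groups. In control over Scf-GFP-positive stroma it was 1058, and 453 with all deposited peaks, 1758 with no filter on low values, 577 with the gene body alone, 425 with the replicate block and 1681 in covered bases. In rMSC over control it was 223, and 35, 738, 146 and 45 under the same first 4 of these settings, 138 with flow cell as a covariate, 495 with only the 2 groups and 887 in covered bases. In rMSC over Scf-GFP-positive stroma it was 1289, and 2312 with no filter, 650 with the gene body alone and 603 with the replicate block. By the F test it was 4117, and 1908 with the gene body alone.

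Members called in Scf-GFP-positive over Scf-GFP-negative stroma numbered 1, and 3 with all deposited peaks, 4 with −log10 q of at least 5, 2 with no filter, 2 with the gene body alone, 3 with 20 kb flanks, 0 with only the 2 groups, 6 in covered bases, 4 with equal medians and 0 with tied peaks dropped. In control over Scf-GFP-positive stroma the 0 became 1 with −log10 q of at least 5, no filter, the gene body alone or covered bases. In rMSC over control the 0 became 1 with tied peaks dropped. In rMSC over Scf-GFP-positive stroma the 1 became 0 with all deposited peaks, the replicate block or only the 2 groups, 2 with no filter, 20 kb flanks or equal medians, and 3 in covered bases. By the F test the 3 became 5 with all deposited peaks, 8 in covered bases and 6 with equal medians. Without a filter Smad2 enters the fit with near-zero spread, which adds to these counts.

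With each library left out in turn, loci called ranged from 1872 to 2630, 460 to 1347, 82 to 463 and 587 to 1570 in the 4 comparisons in the order above, and members called from 0 to 3, 0 to 1, 0 to 0 and 0 to 3. By the F test members called ranged from 0 to 6. Held regions ranged from 30 to 50 for Scf-GFP-positive without Scf-GFP-negative and 7 to 24 the other way, from 9 to 13 for control without Scf-GFP-positive and 13 to 29 the other way, from 6 to 10 for rMSC without control and 6 to 11 the other way, and from 14 to 19 for rMSC without Scf-GFP-positive and 22 to 41 the other way. These region counts can only stay or rise when a library is left out. In the fits, a lone library left in a group was assumed to vary like the other groups. With all deposited peaks, 4 regions were held by both Scf-GFP-negative and no Scf-GFP-positive library, 15 by every control and no Scf-GFP-positive library and 10 by every control and no rMSC library. With −log10 q of at least 5 the first 2 of these were 4 and 17.

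Of loci called in the 4 comparisons, 44.8, 48.2, 56.5 and 53.0% were higher, and this split moved with list length: 78.8, 76.4, 71.4 and 81.7% with all deposited peaks, 73.6, 81.7, 47.2 and 80.8% with −log10 q of at least 5, 31.7, 66.2, 51.9 and 67.5% with ties dropped, and 65.3, 28.1, 68.5 and 40.5% in covered bases. In Scf-GFP-positive over Scf-GFP-negative stroma it was 61.0% with equal medians and 64.3% with the gene body alone, and in rMSC over control 43.8% with the gene body alone. The median change over all loci in Scf-GFP-positive over Scf-GFP-negative stroma was -0.24, and -0.06 with equal medians. It was 0 with all deposited peaks, with −log10 q of at least 5 and with the gene body alone, and -0.37 with tied peaks dropped. Same-numbered libraries of different groups did not deviate together over the 13 pairs (r of -0.022 to 0.03), and 4 of 10 libraries correlated best with their own number. The replicate block called 2314, 425, 45 and 603 loci and 1, 0, 0 and 0 members, and the numbers are not taken to pair the libraries.

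Among the pathway loci named, Tgif1 in Scf-GFP-positive over Scf-GFP-negative stroma was 0.42 in covered bases, and Tgfbrap1 was 0.13 in covered bases and 0 with −log10 q of at least 5, each against a lower call in summits. In that comparison the count of genes that rose ranged over the other settings from 5 to 16 for release and activation, 1 to 8 for receptor partners and 1 to 13 for target genes. The weaker peaks in Scf-GFP-negative lists limit what absence there can show.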
